A study of Mus musculus with 36 samples.

Results

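The genes described here are 10 mouse apolipoproteins, Apoa1, Apoa2, Apoa4, Apoa5, Apob, Apoc1, Apoc2, Apoc3, Apoc4 and Apoe, out of 21889 gene symbols in the expression table. They were taken from the table by symbol. Expression was measured by RNA-Seq in livers of male C57BL/6J mice (C57BL/6 in the labels) of 12 ages, with 3 mice per age (36 libraries in all). The ages were a late gestational day (GD17.5, given in the labels as Day -2), Day 0 (just after birth, before any milk was taken), Days 1, 3, 5, 10, 15 and 20 (suckling) and Days 25, 30, 45 and 60 (after weaning to standard chow). The labels give no engineered allele and no agent, so the groups differ in age and in what comes with it. The libraries of Day 0 and Day 1 were timed from birth, and those from Day 3 onwards were collected at one hour of the morning. The 3 mice of an age were drawn at random from several litters.

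Apolipoproteins are the protein coat of lipoproteins, the particles that carry triglyceride and cholesterol in plasma. Apob builds very low density lipoprotein (VLDL), Apoa1 and Apoa2 build high density lipoprotein (HDL), the small Apoc proteins and Apoa5 set how fast lipoprotein lipase removes triglyceride, and Apoe is the ligand by which receptors take up remnants. Liver makes most of these proteins, and several of them are also made by the intestine, which handles milk fat in suckling pups.

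Of the 10 genes, 8 lie in a pair of clusters (positions in the NCBI37 build, from the GENCODE M1 annotation). On chromosome 9, Apoa1 (ENSMUSG00000032083.8, 46036663 to 46038549, plus strand), Apoc3 (ENSMUSG00000032081.3, 46041016 to 46043719, minus strand), Apoa4 (ENSMUSG00000032080.6, 46048779 to 46051542, plus strand) and Apoa5 (ENSMUSG00000032079.5, 46076716 to 46080002, plus strand) span 43340 bases. On chromosome 7, Apoc2 (ENSMUSG00000002992.10, 20256928 to 20266772), Apoc4 (ENSMUSG00000074336.4, 20263443 to 20266765), Apoc1 (ENSMUSG00000040564.7, 20274833 to 20278007) and Apoe (ENSMUSG00000002985.9, 20281458 to 20284515), all on the minus strand, span 27588 bases. Apoa2 (ENSMUSG00000005681.6, chromosome 1, 173155185 to 173156510, plus strand) and Apob (ENSMUSG00000020609.8, chromosome 12, 7984454 to 8023641, plus strand) stand alone. Apoc2 and Apoc4 overlap: they share 112 exonic bases, 24.1% of those of Apoc4, so how reads were divided between them is uncertain. The annotation also places an antisense gene, Gm10680, across Apoa4, and since the library kit did not mark strand, reads from the pair cannot be told apart.

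RefSeq promoter sequences (GRCm38.p6) were found for 8 of the 10 genes. Apoc1 and Apoc3 had no entry. For 4 genes with contrasting courses, the 150 bases before 1 RefSeq start per gene are shown. These were Apoa5 (switched on between GD17.5 and Day 0), Apoc2 (highest on Day 1), Apoc4 (highest mean on Day 3) and Apoe (rising in steps to Day 15). Each sequence has 1 exact match in NCBI37 and is written in the direction of the gene. Apoa5 and Apoe have more than 1 RefSeq start, and their other starts are not shown. Capitals mark matches to TATAAA, to AGGTCA (a half-site of nuclear receptors) or to GTTAAT (a half-site of Hnf1). These motifs were searched on both strands together with CAAAGTCCA and AGGTCANAGGTCA, the latter of which holds AGGTCA at both ends.
Apoa5, chr9:46076541-46076690, plus strand: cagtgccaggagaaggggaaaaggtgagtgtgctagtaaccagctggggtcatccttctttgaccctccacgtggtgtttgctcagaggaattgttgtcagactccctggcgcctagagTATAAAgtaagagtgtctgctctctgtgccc
Apoc2, chr7:20263291-20263440, minus strand: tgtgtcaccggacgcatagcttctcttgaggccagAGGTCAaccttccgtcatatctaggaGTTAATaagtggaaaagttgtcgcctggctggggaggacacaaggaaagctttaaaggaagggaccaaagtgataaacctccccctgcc
Apoc4, chr7:20266810-20266959, minus strand: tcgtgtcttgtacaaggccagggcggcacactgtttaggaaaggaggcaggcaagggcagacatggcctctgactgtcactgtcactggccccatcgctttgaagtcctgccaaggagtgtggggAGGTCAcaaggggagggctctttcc
Apoe, chr7:20284538-20284687, minus strand: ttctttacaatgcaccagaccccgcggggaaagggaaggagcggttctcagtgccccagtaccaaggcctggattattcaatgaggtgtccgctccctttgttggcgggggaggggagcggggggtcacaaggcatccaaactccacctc
TATAAA began 31 bases before the start shown for Apoa5 and lay farther from its other start. AGGTCA began 115 and GTTAAT 89 bases before the start of Apoc2, and AGGTCA 25 bases before that of Apoc4. The Apoe sequence shown held no match. The Apoe starts not shown do have matches before them, to TATAAA or to GTTAAT, the latter beyond 150 bases. Of 32851 promoter windows of this length, 7.57% held TATAAA, 8.58% AGGTCA, 3.71% GTTAAT, 0.271% CAAAGTCCA and 0.0304% AGGTCANAGGTCA. A match is a description of the letters and not a bound site.

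Values are FPKM, read fragments scaled for the length of the transcript and the size of the library. This puts different genes on one scale, but libraries still differed in their trend with transcript length. Comparisons of levels between genes are therefore approximate. Summed FPKM per mouse was between 353712 and 450597. The table holds no counts. Its low values often moved in steps of whole fragments (76.3% of those of 1526 low genes within 0.1 of a whole number), from which the relative depth of the libraries was estimated at 0.880 to 1.24 and the depth of a typical library at about 81900000 fragments. The 8 defining hepatocyte genes (Alb, Ttr, Trf, Ahsg, Fgb, Fga, Fgg and Cps1) were all measured, and their summed level was 10746 FPKM before birth and between 52459 and 112431 FPKM at every later age. Erythroid genes (8 of 8 measured) fell from 158183 FPKM on GD17.5, 36.98% of all FPKM, to 682 FPKM on Day 60, 0.172%. Over the suckling ages, all 8 erythroid genes (Slc4a1, 5.01, and Gata1, 2.62 on the log2 scale, with the smallest p-values), 8 of 9 macrophage genes (Cd68, 1.31, and Csf1r, 1.19) and 4 of 8 hepatocyte genes (Ahsg, 1.81, and Fga, 0.62) were higher than after weaning, and 2 hepatocyte genes (Alb, -0.42, and Cps1, -0.60) were lower. Of 7 intestinal genes, 2 passed the filter and 1 (Lgals4, 0.60) was higher. Of all genes tested, 68.1% were higher and 11.7% lower over the suckling ages than after weaning. From Day 20 to Day 25 Ahsg fell (-0.66). The part of these cell types in the results that follow was not tested. In whole liver, fewer cells of a type and less RNA per cell cannot be told apart.

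The apolipoprotein mRNAs were a far larger part of the liver transcriptome at weaning than before birth. Together they held 1.496% of all FPKM on GD17.5, 4.26% on Day 0, 6.64% on Day 1 and 11.7% on Day 20, with 6366 ± 616 FPKM (SD, n = 3) on GD17.5 and 44962 ± 9546 FPKM on Day 20. From Day 20 to Day 60 the age means of the sum lay between 36320.5 and 44962 FPKM. Single mice lay between 28675 FPKM (Day 25) and 57293 FPKM (Day 30). The ratio of Day 20 to GD17.5 was 7.06, and it was 1.18 when libraries were scaled to the hepatocyte genes. The makeup of the sum changed throughout, as the plots of single genes and of shares show.

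**Figure D1:**
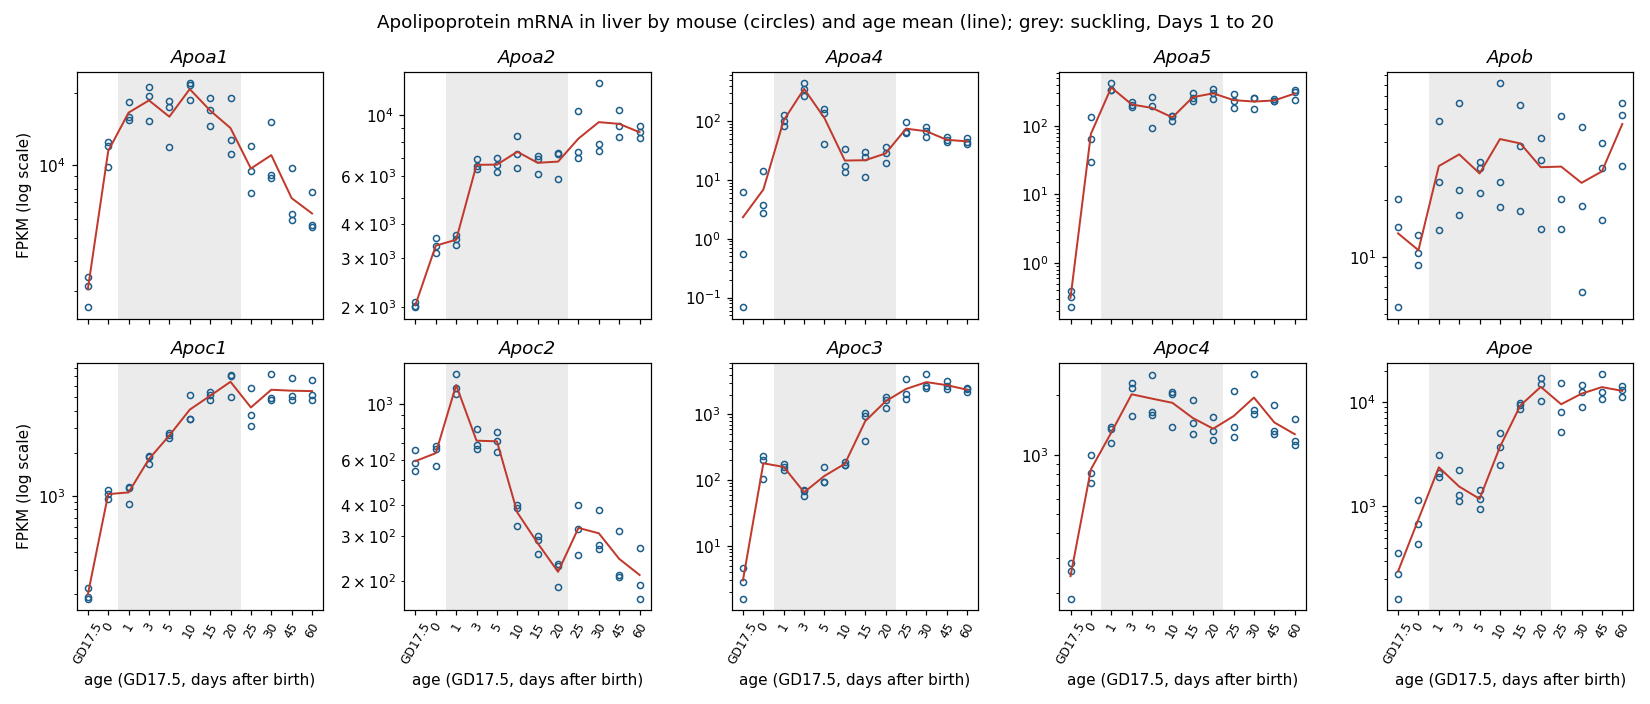
FPKM (log scale, a different range in each panel) of the 10 apolipoproteins by age. Circles are single mice (3 per age), lines are age means, and the grey band is the suckling period. Apoc3 spans from 2.99 FPKM on GD17.5 to 3096 FPKM on Day 30, Apoc2 is highest on Day 1 and falls to Day 20, and the mice of one age lie far apart for Apob.

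All 10 genes differed from Day 60 in at least 1 age (limma on log2(FPKM + 1), p-values adjusted by Benjamini-Hochberg over 11149 genes and 11 comparisons), where 90.7% of all genes tested did. The count was close to that background. Apob was the gene nearest to the threshold (limma, adjusted p = 0.0126). It did not pass without mouse 2 of Day 60 (limma, adjusted p = 0.0545) or with Dunnett's comparison, in which 9 of the 10 genes passed.

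Fewer of the genes differed from Day 60 at later ages. On GD17.5, 9 genes were lower than on Day 60 (18.6% of all genes were) and 1, Apoc2, was higher (56.4%). On Day 0, 8 were lower (20.3% of all genes) and Apoa1 and Apoc2 were higher (43.6%). On Day 1, Apoa2, Apoc1, Apoc3 and Apoe were lower (11.7% of all genes) and Apoa1 and Apoc2 higher (53.4%). The counts were 4 lower and 4 higher on Day 3 (10.3% and 55.7% of all genes), 5 and 3 on Day 5 (8.5% and 56.9%) and 3 and 2 on Day 10 (10.6% and 35.3%). On Day 15 Apoc3 was still lower (8.95% of all genes) and Apoa1 higher (18.4%). On Day 20 Apoa1 was higher (8.93% of all genes, with 6.99% lower), and on Day 25 Apoc2 was (4.18%, with 3.24% lower). On Days 30 and 45 the count was 0 (limma), where 1.77% and 0.0628% of all genes were higher and 1.79% and 0.17% lower. At unadjusted p-values under 0.05 there were 3 genes on Day 30 and 0 on Day 45, and with Dunnett's comparison 2 (Apoa1 and Apoc2) and 0.

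Between neighbouring ages, the most apolipoproteins changed from GD17.5 to Day 0. No age between these was sampled, so late gestation and birth cannot be told apart. From GD17.5 to Day 0, 8 of the 10 genes rose and 0 fell (0 also at an unadjusted p under 0.05), while 13.1% of all genes rose and 41.4% fell (limma, adjusted p under 0.05). The median log2 fold change was 1.73 over the apolipoproteins and -0.29 over all genes. Apoa5 and Apoc3 rose most, by 5.64 and 5.498 on the log2 scale, and Apob (-0.12) and Apoc2 (0.10) did not pass the test. The 8 hepatocyte genes also rose, all of them, with a median log2 fold change of 2.60, and the 8 erythroid genes all fell, with a median of -1.13. When libraries were scaled to those hepatocyte genes instead, the median of all genes moved to -2.46. Apoa5 (4.39) and Apoc3 (3.29) then still rose, 6 apolipoproteins were lower on Day 0 (Apoa1, Apoa2, Apob, Apoc2, Apoc4 and Apoe), and Apoa4 and Apoc1 did not pass the test. Apoa5 and Apoc3 thus rose relative to the hepatocyte genes as well as to all mRNA. The part of the changing erythroid share in these values was not tested.

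From Day 0 to Day 1, 5 rose (Apoa4, Apoa5, Apoc2, Apoc4 and Apoe) and 0 fell, also at an unadjusted p under 0.05, where 23.7% of all genes rose and 7.88% fell. Apoa1 (0.54, limma, adjusted p = 0.0730) passed with TPM scaling (0.64, adjusted p = 0.0148), hepatocyte gene scaling (0.69, adjusted p = 0.0453) and removal of the length and GC trends (0.75, adjusted p = 0.000181). From Day 1 to Day 3, Apoa2, Apoa4 and Apoc1 rose and Apoc2 and Apoc3 fell (8.22% and 3.09% of all genes). From Day 5 to Day 10, Apoc1 and Apoe rose (1.88% of all genes) and Apoa4 and Apoc2 fell (34.4%). From Day 10 to Day 15, Apoc3 and Apoe rose (1.52% of all genes) and 0 fell (10.5%), or 1, Apoc2, at an unadjusted p under 0.05.

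Among the genes of triglyceride lipolysis, Apoc3, which slows lipoprotein lipase and remnant uptake, ranged 1035-fold between its highest and lowest age means, and Apoa5 1179-fold from a lowest mean of 0.310 FPKM. The values of Apoc3 were 1.58, 4.62 and 2.78 FPKM in the 3 mice of GD17.5 and 232, 105 and 204 FPKM in those of Day 0. On Day 3 the mice gave 57.0, 68.8 and 70.2 FPKM, on Day 10 171, 170 and 189 FPKM, on Day 20 1271, 1637 and 1841 FPKM and on Day 30 4093, 2698 and 2497 FPKM. The mice of Day 0 lay above those of Day 3, so the gene dipped before its main rise, and the mice of Day 20 lay above all those of Day 10. The dip from Day 1 to Day 3 was -1.27 on the log2 scale (SE 0.32; limma, adjusted p = 0.00875), and the step from Day 10 to Day 15 was 2.03 (SE 0.32; limma, adjusted p = 4.91e-05). Across the suckling period Apoc3 was lower than after weaning by 3.38 on the log2 scale (SE 0.15, limma, adjusted p = 2.36e-18). Its highest age, Day 30, did not differ beyond the spread from Days 25, 45 and 60.

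Apoc2, the cofactor that lipoprotein lipase needs, went the other way. It was present before birth, at 542, 659 and 582 FPKM on GD17.5, and reached 1309, 1153 and 1094 FPKM on Day 1. On Day 5 it was 645, 716 and 773 FPKM, on Day 10 331, 388 and 400 FPKM and on Day 20 229, 190 and 234 FPKM. The Day 1 mice all lay above every other mouse of the series, and Day 1 differed from each of the 11 other ages. The rise from Day 0 to Day 1 was 0.89 (SE 0.18, limma, adjusted p = 0.000421) and the falls from Day 1 to Day 3 and from Day 5 to Day 10 were -0.73 (adjusted p = 0.00699) and -0.93 (adjusted p = 0.000165) on the log2 scale. Over the suckling ages it was higher than after weaning by 0.89 (SE 0.08, limma, adjusted p = 6.14e-11). Relative to the 2 ages before suckling it was lower by 0.33 (adjusted p = 0.00592), a call that was lost when libraries were scaled to a common upper quartile (-0.17, adjusted p = 0.219).

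The ratio of Apoc3 to Apoc2 mRNA, inhibitor to cofactor, joined these courses. It was 0.00490 ± 0.00205 on GD17.5, 0.277 ± 0.0842 on Day 0, 0.0914 ± 0.00784 on Day 3, 0.477 ± 0.0393 on Day 10, 2.85 ± 1.33 on Day 15 and 11.6 ± 2.48 on Day 60 (SD, n = 3). Every mouse up to Day 10 had more Apoc2 than Apoc3 mRNA, and every mouse from Day 15 on had more Apoc3. Since both genes are read in the same library, the ratio does not depend on how libraries are scaled. It does depend on the level of Apoc2, for which the division of reads with the overlapping Apoc4 is uncertain.

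**Figure D2:**
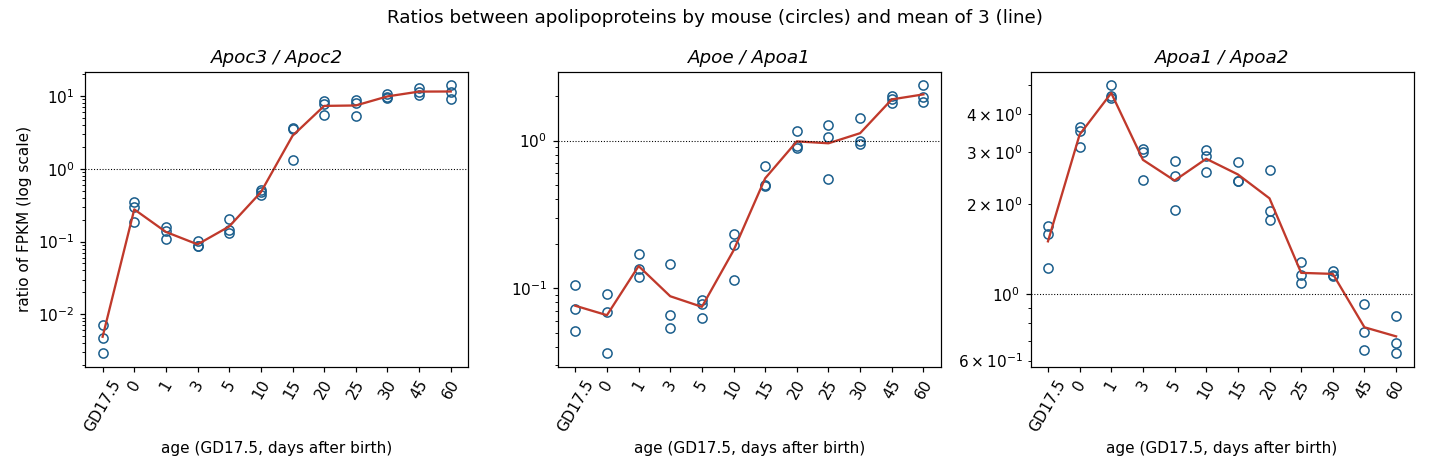
Ratios of FPKM within each library (log scale) by age for Apoc3 over Apoc2, Apoe over Apoa1 and Apoa1 over Apoa2. Circles are single mice, lines are means of 3 mice, and the dotted line marks equal FPKM. The Apoc3 to Apoc2 ratio passes 1 between Day 10 (0.477) and Day 15 (2.85).

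Apoa5, which promotes triglyceride lipolysis and lies in the same cluster as Apoc3, was switched on between GD17.5 and Day 0. It was 0.224, 0.383 and 0.323 FPKM on GD17.5, 135, 29.8 and 65.1 FPKM on Day 0 and 340, 333 and 423 FPKM on Day 1. The mice of these 3 ages did not overlap. Day 1 exceeded Day 0 by 2.48 on the log2 scale (SE 0.33, limma, adjusted p = 1.58e-06). Afterwards the age means stayed between 134 and 300 FPKM, Day 10 being the lowest and Day 20 the highest, and Day 1 did not differ beyond the spread from Days 3, 15, 20, 25, 30, 45 and 60. The difference of the suckling ages from those after weaning was -0.13 (limma, adjusted p = 0.443), and it passed the test with the upper quartile scaling (-0.54, adjusted p = 0.00263) and the hepatocyte gene scaling (-0.40, adjusted p = 0.0198).

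Apoc1, a small protein that hinders receptor uptake of remnants, increased 32.1-fold between GD17.5 (191, 187 and 222 FPKM) and Day 20 (5038, 7025 and 7184 FPKM). The increase came in steps on Day 0 (2.36 on the log2 scale), Day 3 (0.80) and Day 10 (0.58), each past the test (limma, adjusted p at most 0.0241). Day 20 did not differ beyond the spread from Days 15, 25, 30, 45 and 60, and across the suckling period Apoc1 was lower than after weaning by 0.79 (SE 0.09, limma, adjusted p = 7.55e-09). Apoc4, a small protein of less clear function, was 187, 259 and 284 FPKM on GD17.5 and 813, 723 and 995 FPKM on Day 0. On Day 3, its highest age, it was 1575, 2184 and 2308 FPKM, with no overlap between these ages. Apoc4 on Day 3 did not differ beyond the spread from Days 1, 5, 10, 15, 25, 30 and 45. Its rise from Day 0 to Day 1 was 0.63 on the log2 scale (SE 0.23, limma, adjusted p = 0.0415), and this call was lost without mouse 1 or 2 of Day 0 or any 1 mouse of Day 1 (adjusted p = 0.0558 to 0.144 with limma), without the filter (0.0643) and with upper quartile scaling (0.189). From suckling to after weaning Apoc4 did not pass the test (0.09, adjusted p = 0.425), but it passed in opposite directions under different alternatives: with the upper quartile scaling it was -0.32 (adjusted p = 0.0212), and with the length and GC trends removed 0.18 (limma, adjusted p = 0.000637).

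Of the HDL proteins, Apoa1, which activates cholesterol esterification on HDL, had the highest mean of the family at each age up to Day 25. Its 3 mice gave 2554, 3425 and 3150 FPKM on GD17.5, 18705, 22026 and 21659 FPKM on Day 10 and 5660, 5508 and 7732 FPKM on Day 60. The Day 10 mice lay above both other groups and the Day 60 mice above those of GD17.5. Day 10 did not differ beyond the spread from Days 1, 3, 5, 15 and 20. Apoa2, the second HDL protein, rose from GD17.5 to Day 0 (0.72 on the log2 scale, limma, adjusted p = 0.000448) and again from Day 1 to Day 3. The second step, at which Apoa4 and Apoc1 also rose, went from 3351, 3521 and 3665 FPKM to 6357, 6901 and 6536 FPKM. Its log2 fold change was 0.91 (SE 0.16, limma, adjusted p = 0.000251). Across the suckling period Apoa2 was lower than after weaning (-0.53, SE 0.07, limma, adjusted p = 1.5e-07), where Apoa1 was higher (1.04, SE 0.10, limma, adjusted p = 3.84e-10). The highest mean of Apoa2, that of Day 30, did not differ beyond the spread from those of Days 10, 20, 25, 45 and 60. The ratio of Apoa1 to Apoa2 was 4.72 ± 0.256 on Day 1 and 0.723 ± 0.111 on Day 60, and every mouse of Days 45 and 60 had more Apoa2 than Apoa1 mRNA.

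Apoa4, an apolipoprotein of chylomicrons and HDL that is made mainly in the intestine, had a short peak. Its values were 126, 99.5 and 83.5 FPKM on Day 1, 441, 350 and 266 FPKM on Day 3, 159, 137 and 40.0 FPKM on Day 5 and 33.2, 13.8 and 16.9 FPKM on Day 10. The Day 3 mice lay above every other mouse of the series. Day 3 did not pass the test against Day 5 and differed from the 10 other ages. The steps were 3.99 on the log2 scale from Day 0 to Day 1 (limma, adjusted p = 2.35e-06), 1.75 from Day 1 to Day 3 (adjusted p = 0.0328) and -2.21 from Day 5 to Day 10 (adjusted p = 0.00204). On GD17.5 the 3 mice differed widely, at 0.0680, 6.35 and 0.552 FPKM, and the rise to Day 0 (1.48, limma, adjusted p = 0.0224) was lost without mouse 1 or 3 of GD17.5 or mouse 1 of Day 0 (adjusted p = 0.0981 to 0.199 with limma) and with the length and GC trends removed (0.0508). The difference of the suckling ages from those after weaning (0.03, limma, adjusted p = 0.902) averages over this peak. The summed level of 7 intestinal genes was between 3.06 and 20.9 FPKM at every age. It was 11.1 FPKM on GD17.5, 3.06 FPKM on Day 0, 9.44 FPKM on Day 1 and 12.6 FPKM on Day 3. On Days 5, 10 and 15, when Apoa4 was below its Day 3 mean, the intestinal sum was 18.3, 20.9 and 19.5 FPKM. Fabp2, the intestinal fatty acid binding protein, named here after its values were seen, rose with Apoa4 from Day 0 to Day 1 (1.82 on the log2 scale, limma, adjusted p = 0.000165), from 1.25 to 6.59 FPKM, and its highest age mean was 19.6 FPKM on Day 10. Lgals4, the other intestinal gene past the filter, did not pass the test from Day 0 to Day 1 (0.52, limma, adjusted p = 0.466). Lct was listed at 0 in 8 of the 36 mice, Cdx1 in 26, Cdx2 in 27 and Sis in 34. The part of intestinal cells in the course of Apoa4 was not tested.

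Apoe, the receptor ligand of remnants, rose in steps between GD17.5 and Day 15. Its 3 mice gave 131, 359 and 226 FPKM on GD17.5, 2088, 1904 and 3104 FPKM on Day 1, 1441, 1165 and 937 FPKM on Day 5, 3669, 2484 and 5007 FPKM on Day 10 and 10213, 14708 and 16938 FPKM on Day 20. The mice of Day 5 lay below those of Day 1 and of Day 10, and those of Day 20 above all of Day 10. The rise from GD17.5 to Day 0, when the mice gave 1138, 683 and 438 FPKM, was 1.66 on the log2 scale and passed the test (limma). The steps from Day 0 to Day 1 (1.72), from Day 5 to Day 10 (1.62) and from Day 10 to Day 15 (1.37 on the log2 scale) also passed it (limma, adjusted p = 0.000945, 0.00120 and 0.0136). Across the suckling period it was lower than after weaning by 1.72 (SE 0.17, limma, adjusted p = 3.02e-10), and Day 20 did not differ beyond the spread from Days 15, 25, 30, 45 and 60. Macrophages also make Apoe. The summed level of 9 macrophage genes went from 149 FPKM on Day 0 to 276 FPKM on Day 1, together with the first step of Apoe after birth, and from 288 FPKM on Day 5 to 156 FPKM on Day 20, while Apoe rose. The ratio of Apoe to Apoa1 was 0.0760 ± 0.0270 on GD17.5, 0.0747 ± 0.0103 on Day 5, 0.987 ± 0.146 on Day 20 and 2.05 ± 0.283 on Day 60.

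**Figure D3:**
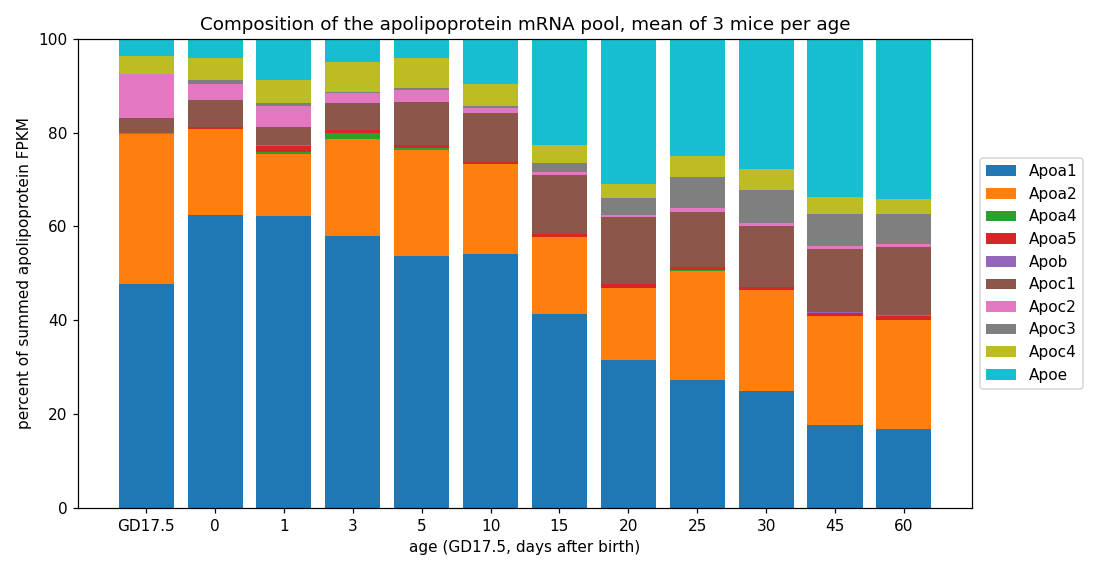
Share of each apolipoprotein in the summed FPKM of the 10 genes, as the mean of 3 mice at each age (bars add up to 100%). Apoa1 holds 62.5% on Day 0 and 16.7% on Day 60, while Apoe goes from 3.66% on GD17.5 to 34.1% on Day 60.

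The family was led by different genes at different ages. Apoa1 held 47.6% ± 2.53 of the apolipoprotein FPKM on GD17.5, 62.5% ± 1.77 on Day 0 and 16.7% ± 1.63 on Day 60 (SD, n = 3). Apoe and Apoa1 were at 30.9% ± 1.86 and 31.6% ± 3.38 on Day 20, within their spread. Every mouse of Days 45 and 60 had more Apoe than Apoa1 mRNA, and Apoe held 34.1% ± 1.39 on Day 60. Apoc3 went from 0.0458% ± 0.0196 to 6.35% ± 0.414 and Apoc2 from 9.34% ± 0.283 to 0.560% ± 0.0878 between GD17.5 and Day 60. Shares within a library do not depend on its scaling.

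Apob, the structural protein of VLDL and the longest of the transcripts (13934 bases), was low and the least certain. Its age means lay between 10.9 FPKM on Day 0 and 49.95 FPKM on Day 60, and on Day 10 its mice gave 81.9, 18.3 and 24.8 FPKM. Between mice of one age it spread by 0.87 on the log2 scale (SD), more than 99.3% of the 1613 genes of like level, whose median was 0.23. For each library a slope with transcript length was fitted over genes to their deviations from the age mean. A length trend shared by the mice of an age does not enter it. Over the 36 mice the deviations of Apob followed this slope (r = 0.84). Those of the other 9 apolipoproteins, with transcripts of 464 to 2515 bases, went the opposite way (r = -0.27 to -0.91). These r values are over libraries and are descriptions only. Apob was higher over the suckling ages than on GD17.5 and Day 0 by 1.31 (SE 0.38, limma, adjusted p = 0.00327). With each library's trend with length and GC content removed it was 1.19 with a SE of 0.27 (adjusted p = 0.00025), and relative to the hepatocyte genes it was 0.18 and did not pass (adjusted p = 0.628). Of the 66 pairs of ages, 4 differed for Apob and 25 to 49 for each other apolipoprotein (limma, where 45.2% of all tests of a gene and a pair did).

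**Figure D4:**
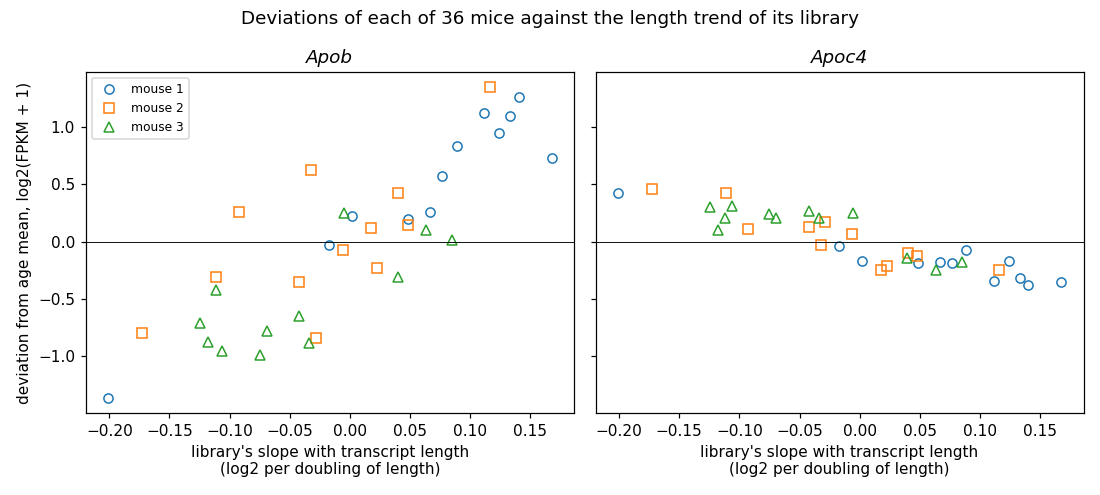
Deviation of each of 36 mice from its age mean (log2(FPKM + 1)), for Apob (13934 bases) and Apoc4 (464 bases). It is set against the library's slope with transcript length, fitted over genes to their deviations from the age mean. Marks give the replicate number, and the deviations of Apob rise with the slope (r = 0.84) while those of Apoc4 fall (r = -0.91).

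Compared with the ages before milk was taken, 9 of the 10 apolipoproteins were higher over the suckling ages and 1, Apoc2, was lower, while 27% of all genes were higher and 40.7% lower (limma, adjusted p under 0.05). Their median log2 fold change was 2.28 and that of all genes -0.10. Apoa5 (4.62), Apoa4 (3.94), Apoc3 (3.29) and Apoe (3.15) rose most. With the hepatocyte gene scaling, under which the median of all genes was -1.08, 7 were higher, and Apoa2 (0.05, adjusted p = 0.691 with limma) and Apob did not pass.

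Between the suckling ages and those after weaning the family divided. Apoa1 and Apoc2 were higher in suckling mice, Apoa2, Apoc1, Apoc3 and Apoe were lower, and Apoa4, Apoa5, Apob and Apoc4 did not pass the test. This comparison averages Days 1 to 20, and not every suckling age followed the average. On Day 20 the means of Apoc1 and Apoe were their highest, and that of Apoc2 lay below those of Days 25, 30 and 45. The Day 20 means of Apoa1, Apoa2 and Apoc3 kept the direction of the average against each age after weaning. Of all genes, 68.1% were higher and 11.7% lower in suckling mice, and the median of all genes was itself 0.39 against -0.05 for the apolipoproteins. With the upper quartile scaling, which brought the median of all genes to 0.13, 2 apolipoproteins were higher and 6 lower, Apoa5 and Apoc4 being added to the lower ones.

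**Figure D5:**
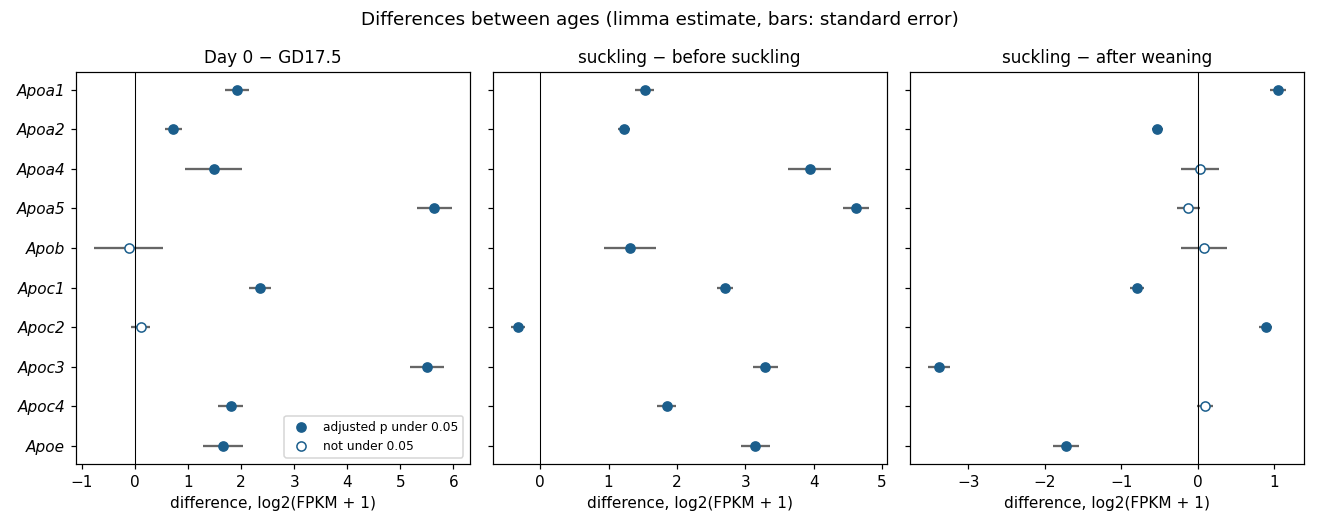
Differences in log2(FPKM + 1) for the 10 apolipoproteins: Day 0 minus GD17.5, suckling minus before suckling, and suckling minus after weaning. Points are limma estimates, bars are standard errors (SE), and filled points have an adjusted p under 0.05. Apoa5 (5.64) and Apoc3 (5.498) lie farthest from 0 in the left panel and Apoc3 (-3.38) in the right panel.

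From Day 20 to Day 25, 0 of the 10 apolipoproteins passed the test (limma), where 3.94% of all genes rose and 3.26% fell. At an unadjusted p under 0.05 there were 4: Apoa1 (-0.55), Apoa4 (1.38), Apoc1 (-0.64) and Apoc2 (0.55 on the log2 scale). Apoc1 (adjusted p = 0.0507, and 0.000681 to 0.444 over the alternatives) and Apoc2 (adjusted p = 0.0547, and 0.0199 to 0.336) lay next to the threshold and passed it under several alternatives. The mice of Day 25 differed among themselves, with Apoe at 5185, 15313 and 8025 FPKM, and the SE of a step of Apoe was 0.37 on the log2 scale. Other steps with 0 apolipoproteins past the test (limma) were Day 3 to Day 5 (3 at an unadjusted p under 0.05, where 1.09% of all genes rose and 2.12% fell), Day 15 to Day 20 (2, with 0.834% and 1.16%), Day 25 to Day 30 (1, with 0.834% and 0.807%) and Day 30 to Day 45 (1, with 0.233% and 0.798%).

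Other proteins carried on lipoproteins were mostly lower in suckling mice than after weaning: of 10 tested, 7 were lower and 3 higher (11.7% and 68.1% of all genes). Against the ages before suckling all 10 were higher (27% of all genes were, with 40.7% lower). The serum amyloid genes Saa1 (-3.69) and Saa2 (-3.11 on the log2 scale), acute phase proteins of HDL, were among the lower ones and rose from Day 20 to Day 25 by 1.25 and 1.43 (limma, adjusted p = 0.000886 and 0.000169), while Apoh, a phospholipid-binding plasma protein, was higher in suckling mice (0.52) and fell at that step (-0.46, adjusted p = 0.0154). Saa1 and Saa2 are close copies of each other, so their values are uncertain. Apof, an HDL and low density lipoprotein protein, was also higher (0.42). Apod was below the filter and listed at 0 in 12 mice.

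Of 9 genes of VLDL assembly, all 9 were higher in suckling mice than before suckling (27% of all genes were). Against the ages after weaning 2 were higher and 2 lower, where 68.1% of all genes were higher and 11.7% lower. Sar1b, a coat protein of vesicles (-0.33), and Cideb, which adds lipid to VLDL (-0.27), were lower. Tm6sf2, needed for lipid loading of VLDL (0.40), and Apobec1, the editing enzyme of Apob mRNA (0.27), were higher. Dgat2, which makes triglyceride, fell from Day 20 to Day 25 (-0.68, limma, adjusted p = 0.0125).

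For HDL remodelling, 5 of 6 genes were higher in suckling mice than after weaning (68.1% of all genes were, with 11.7% lower). Scarb1, the HDL receptor, was 155 ± 18.9 FPKM on Day 20 and 73.2 ± 6.51 FPKM on Day 25, a change of -1.07 on the log2 scale (limma, adjusted p = 0.000395), and the sterol exporter Abcg1 was higher in suckling mice by 0.68. Of 7 lipolysis genes, 4 were higher and 3 lower, against the same background. Lpl, the lipase that Apoc2 serves, was higher in suckling mice by 2.61 (SE 0.16, limma, adjusted p = 7.49e-15) and went from 26.5 ± 6.34 FPKM on Day 20 to 7.80 ± 3.25 FPKM on Day 25. Gpihbp1, which anchors the lipase (0.63), was higher, and Lmf1, a lipase maturation factor (-0.65), and Gm6484 (-0.63) were lower.

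Of 7 genes of lipoprotein uptake, 3 were higher and 3 lower in suckling mice than after weaning (68.1% and 11.7% of all genes). The lipoprotein receptor Lsr was lower (-1.40, limma, adjusted p = 3.76e-16), and the chaperone Lrpap1 (0.53) and the receptor Vldlr (0.48) were higher. From Day 20 to Day 25 0 of the 7 passed the test (limma), where 3.94% of all genes rose and 3.26% fell. At an unadjusted p under 0.05 there were 3: Lrp1 (-0.77), Vldlr (-0.29) and Lsr (0.42). Of 11 regulators tested, 3 were higher and 4 lower in suckling mice than after weaning (68.1% and 11.7% of all genes). Ppara, the fatty acid receptor (0.93), and Foxo1 (0.60) were higher, and Nr1d1, a clock repressor (-0.74), and Nr1h3, a sterol receptor (-0.51), were lower. From Day 20 to Day 25 Nr1d1 (-1.51) and Foxo1 (-1.11) fell.

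Genes next to the clusters had narrower ranges than most of the genes inside. On chromosome 9 the 8 neighbours (Zfp259, Bud13, Sik3, Pafah1b2, Sidt2, Tagln, Pcsk7 and Rnf214) spanned 1.66-fold to 6.41-fold between their highest and lowest age means. On chromosome 7 the 7 neighbours (Tomm40, Pvrl2, Clptm1, Relb, Bcam, Cblc and Bcl3) spanned 1.88-fold to 6.45-fold. Within the clusters Apoa5 spanned 1179-fold, Apoc3 1035-fold, Apoa4 152-fold, Apoe 58.4-fold, Apoc1 32.1-fold and Apoc4 8.31-fold, while Apoc2 (5.60-fold) and Apoa1 (6.83-fold) lay in or near the range of the neighbours. The value of Apoa4 rests on mouse 2 of GD17.5 and was 1137-fold without it. From GD17.5 to Day 0, 2 of the 8 neighbours on chromosome 9 rose and 1 fell, and on chromosome 7 4 of 7 rose and 1 fell (13.1% of all genes rose and 41.4% fell). Over the suckling ages 5 neighbours on chromosome 9 were higher than after weaning, of which Tagln (1.02) and Pafah1b2 (1.00) differed most, and 1, Sidt2 (-0.27), was lower, while on chromosome 7 4 were higher, Bcam (1.21) and Tomm40 (0.60) differing most. Of all genes, 68.1% were higher and 11.7% lower.

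Likeness of courses was measured as Pearson's r over the 12 age means of log2(FPKM + 1), as a description without a test, among 4779 genes that reached 10 FPKM. Within the family Apoa2 and Apoc1 (0.95), Apoc3 and Apoe (0.94) and Apoc1 and Apoe (0.92) were most alike, and Apoc2 and Apoe were most unlike (-0.78). Outside it, Apoa1 was nearest to Ahsg (0.97), Itih3 and Vnn3, Apoa2 to Mbl1 (0.99), BC089597 and Tmem59, and Apoa4 to Srpr (0.92), Ctsz and Dci. Apoa5 was nearest to Trp53inp2 (0.98), Asgr1 and Slc10a1, and Apob to Grlf1 (0.95), Dsg2 and Prkd3. For Apoc1 they were Apol7a (0.99), C2 and Ces1c, for Apoc2 Eif6 (0.97), Tmem11 and Aprt, for Apoc3 Aspg (0.98), Gnmt and Apon, for Apoc4 Clec4f (0.99), Cldn3 and Rbp4, and for Apoe 1300017J02Rik (0.98), C4b and Gnmt.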

How the data were processed

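RNA was isolated from 36 mouse livers, and polyadenylated RNA was made into libraries without strand marks. The authors mapped the reads with TopHat 1.2.0 to NCBI37/mm9 and estimated abundance with Cufflinks 1.0.3 against Ensembl 65. The authors deposited FPKM, 1 value per gene symbol and mouse, without counts. Replicates of an age had Pearson's r of at least 0.952 over genes (median 0.978).

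On the scale of log2(FPKM + 1), the 11149 genes that reached a mean of 1 FPKM at some age were fitted with limma 3.58.1 in R 4.3.3, with 1 mean per age over all 36 mice and a mean-variance trend, and Benjamini-Hochberg adjustment was made over all genes of a comparison, with a threshold of 0.05. Fold changes on this scale understate those of low genes. Tested on simulated data of 9850 genes (suckling against after weaning, 200 changed), the fit recovered 99% of 2-fold and 100% of 4-fold changes with 4.33% false calls. Python 3.11.15 with scipy 1.17.1 was used elsewhere.

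The members, gene lists and comparisons were chosen with earlier results of these data known. The genes named are the 10 members, up to 2 genes per list and direction with the smallest adjusted p, in the comparison with the ages after weaning and in that of Day 25 with Day 20, the neighbours of the clusters, and the 3 genes most like each member. Alternatives were a pseudocount of 0.1, no filter or 5 FPKM, 3 scalings (upper quartile, TPM, hepatocyte genes), a replicate block, no variance trend, Dunnett's comparison and each mouse left out. Removal of length and GC trends (10887 genes, 97.7%) was chosen after seeing the data. Some genes of the uptake list are not reported here.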

Additional observations from a re-analysis of the deposited data

How the results depend on the processing

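Of 450 values for the 10 genes and the 5 main comparisons under alternatives other than leaving out a mouse, 400 kept their direction and their side of the threshold, 6 lost the call, 19 gained one and 25 changed sign. With 1 mouse left out, 1759 of 1800 did, 8 lost the call, 11 gained one and 22 changed sign. Beside the calls named with each gene, counts changed as follows. Apolipoproteins lower over suckling than before it went from 1 to 0 with upper quartile scaling. From GD17.5 to Day 0, hepatocyte gene scaling gave 2 higher and 6 lower in place of 8 and 0. From Day 20 to Day 25, the number higher was 1 in place of 0 with a pseudocount of 0.1, a filter of 5 FPKM, TPM scaling, hepatocyte gene scaling and the replicate block, and the number lower was 1 with a pseudocount of 0.1, a filter of 5 FPKM, TPM scaling, the replicate block and no variance trend, and 2 with length and GC trends removed. With a mouse left out these numbers were 0 to 1 each. The summed level rose 11.2-fold from GD17.5 to Day 20 with upper quartile scaling and 1.18-fold with hepatocyte gene scaling, and 6.32-fold to 7.82-fold with a mouse left out. Signs of the log2 difference changed with hepatocyte gene scaling from GD17.5 to Day 0 (Apoa1 -0.65, Apoa2 -1.84, Apoa4 -0.0051, Apoc1 -0.20, Apoc2 -2.46, Apoc4 -0.76 and Apoe -0.90), from Day 0 to Day 1 (Apoc3 0.044), for suckling against after weaning (Apoa4 -0.23, Apob -0.18 and Apoc4 -0.19) and from Day 20 to Day 25 (Apob 0.13). With upper quartile scaling they changed for suckling against after weaning (Apoa4 -0.38, Apob -0.31 and Apoc4 -0.32), from GD17.5 to Day 0 (Apob 0.12) and from Day 0 to Day 1 (Apoa2 -0.081 and Apoc1 -0.12). With TPM scaling that of Apoa4 for suckling against after weaning did (-0.037). With length and GC trends removed they changed for Apoa4 in suckling against after weaning (-0.019), Apob (0.38) and Apoc2 (-0.28) from GD17.5 to Day 0, Apoc3 from Day 0 to Day 1 (0.11) and Apob (0.11) and Apoc4 (-0.031) from Day 20 to Day 25. With a mouse left out, the range was -0.026 to 0.14 for Apoa4 and -0.083 to 0.26 for Apob in suckling against after weaning, -0.62 to 0.24 for Apob from GD17.5 to Day 0, -0.040 to 0.16 for Apoc1 and -0.46 to 0.11 for Apoc3 from Day 0 to Day 1, and -0.64 to 0.30 for Apob and -0.050 to 0.34 for Apoc4 from Day 20 to Day 25. The cause of these changes was not tested.

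Mice of the same replicate number at different ages are different animals. Of 198 pairs of same-numbered mice of different ages, 104 had deviations from the age means that correlated at over 0.1. The median correlation was 0.126 for the same number and -0.0476 for other numbers. Of the 36 mice, 19 correlated best with their own number, a hint from the data and not the design that same-numbered libraries are alike. Mouse 1 was the highest of its age at 8 of the 12 ages for Apob, and at 1 to 6 for each other apolipoprotein. The replicate block changed no count except that from Day 20 to Day 25 (Apoc1, limma, adjusted p = 0.0384, and Apoc2, 0.0492). The depth per mouse is known only as an estimate, and 3 mice per age limit what a single step can show.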
